A study of Mus musculus with 18 samples.

Results

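The last 3 h of an actinomycin D chase, from 3 to 6 h, was examined in nuclear RNA of Ythdc1 conditional knockout (cKO) mouse embryonic stem cells. Of the 18 libraries of the series, 4 make up this comparison, chosen by their labels alone: 2 from cKO cells after 6 h of the drug and 2 from cKO cells after 3 h. All 4 come from C57BL/6 cells grown in serum with LIF, CHIR99021 and PD0325901, labelled Ythdc1_cKO, cultured for 48 h and given actinomycin D at 5 µg/ml. Control cells, labelled Ythdc1_Control, had the same strain, medium, drug and times. They stand beside the cKO values below, with cKO and control cells taken at 0 h, in 1 fit of 12 libraries. The nuclear fraction was isolated, ERCC spike-in RNA (0.1 µl) was added to each sample, ribosomal RNA was removed and stranded total RNA libraries were sequenced. The sources used here give neither how the knockout was made or induced nor whether the 2 libraries of a group were separate cultures, so p-values reflect only how far these libraries differ, and that spread may be technical.

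Actinomycin D binds DNA and blocks the RNA polymerases, so after it is given no new RNA replaces what is lost. In a nuclear fraction, RNA is lost by decay and by export to the cytoplasm, and these counts cannot tell the 2 apart. YTHDC1 is the nuclear reader of N6-methyladenosine (m6A), a base modification of RNA that METTL3 and its partners write; it is known for roles in splicing, export and the decay of chromatin-associated RNA. Levels below are CPM, gene counts divided by library depth in the usual unit and scaled by TMM factors, and a log2 fold change is 6 h over 3 h in cKO cells with its standard error (n = 2 libraries each), unless stated. A gene was called when its adjusted p in edgeR's quasi-likelihood test was below 0.05.

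The 3 h cKO libraries stood apart on the spike-ins. Gene reads per spike-in read were 542 and 529 in the 6 h cKO libraries, against 3604 and 3676 in the 3 h cKO libraries; they were 987 and 1041 in cKO cells at 0 h and between 772 and 1296 in the 6 control libraries. Scaled to spike-in reads, the median of all genes was -2.85 on the log2 scale, 17412 genes were lower (97.3%) and 1 was higher (0.00559%). Changes given below are therefore taken against the typical gene, and "rose" or "fell" means a rise or fall beside it, not in the amount of RNA per nucleus. Of 79 named genes called higher, 78 had a value below 0 when scaled to spike-ins. Of 17900 genes, 1094 had both 3 h cKO libraries below all 10 others and 1689 had both above; for the 3 h control libraries these counts were 372 and 484. Gene reads numbered 4950973 and 17675289 at 6 h, against 14170524 and 19208935 at 3 h. Reads outside annotated exons were 18.3% and 18.05% of uniquely placed reads at 6 h and 23.3% and 23.2% at 3 h, and reads that fitted more than 1 gene were 9.37% and 9.31%, against 6.59% and 6.18%. All 16 embryonic stem cell markers were detected in the 4 libraries, at a summed 4563 and 4646 CPM (before TMM scaling) at 6 h, against 4890 and 4884 at 3 h. Fibroblast feeder markers (12 of 14 detected in all 4) summed to 76.6 and 75.02 CPM on that scale at 6 h, against 66.8 and 65.3 at 3 h, with Lum at 0. Their part in the results was not tested.

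Ythdc1, the gene named by the genotype (ENSMUSG00000035851.14, GRCm38 chromosome 5, 86804221 to 86836659, plus strand), had 19.2 and 18.7 CPM at 6 h, against 14.5 and 15.3 CPM at 3 h. The libraries of the times did not overlap, and the gene rose slightly against the typical gene (log2 fold change 0.34 ± 0.11, adjusted p = 0.0165). At 0 h the cKO libraries held 132 ± 16.1 CPM (SD, n = 2), and control cells averaged 139, 51.1 and 49.3 CPM at 0, 3 and 6 h. The gene's RNA was thus present at 0 h at a level near that of control cells, and counts per gene do not show whether an exon is missing. Mettl3, the catalytic subunit of the m6A writer, had 28.9 and 29.1 CPM at 6 h, against 25.1 and 26.98 CPM at 3 h and was not called (0.15 ± 0.11, adjusted p = 0.286).

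Over all genes, 6101 of 17900 were called (34.1%), 2731 higher (15.3%) and 3370 lower (18.8%). A change of at least 2-fold was met by 490 called genes that rose (2.74%) and 444 that fell (2.48%). The median of all genes was -0.05. The shift was therefore made of many small changes, and the groups described below are read against these shares. In brackets, the share after the word against is that of all genes. Calls also depended on level. In the highest of 5 bins of protein-coding genes by mean CPM 30.9% rose and 34.8% fell. In the lowest bin 3.22% rose and 2.97% fell. For lists of abundant genes, such as chaperones, translation factors and chromatin regulators, the shares of the highest bin are the closer comparison. The 2 times did not overlap for 151 of the 151 named genes that were called, a condition of the rule for 20 of them. They did not overlap for 66.5% of all genes. Many other named genes were picked by lowest p in their list, which favours no overlap, so the count is no support.

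Small nucleolar RNAs rose as a class. Box C/D snoRNAs guide 2′-O-methylation and box H/ACA snoRNAs guide pseudouridylation of ribosomal RNA, while small Cajal body RNAs (scaRNAs) do the same for spliceosomal RNA; most are cut from introns and kept as stable particles. The 3 below are shown because their levels are given one by one further on; they come from GENCODE M21 transcripts (GRCm38), 5′ to 3′; capitals mark the box C letters TGATGA and box D letters CTGA, or the ACA near the 3′ end of Snora73b.
Scarna9: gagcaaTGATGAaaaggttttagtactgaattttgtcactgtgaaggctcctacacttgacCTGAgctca
Scarna6: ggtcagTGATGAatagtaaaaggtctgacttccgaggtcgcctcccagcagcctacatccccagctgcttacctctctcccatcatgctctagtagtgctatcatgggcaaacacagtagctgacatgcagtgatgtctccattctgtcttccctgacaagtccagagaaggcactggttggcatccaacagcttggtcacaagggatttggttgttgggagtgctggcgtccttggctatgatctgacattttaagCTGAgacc
Snora73b: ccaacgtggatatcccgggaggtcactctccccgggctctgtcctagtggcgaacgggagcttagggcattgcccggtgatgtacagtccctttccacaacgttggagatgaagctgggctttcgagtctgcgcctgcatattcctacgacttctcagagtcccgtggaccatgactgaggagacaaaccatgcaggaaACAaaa
Scarna9 lies on chromosome 9 from 15326264 to 15326333 (minus strand), Scarna6 on chromosome 1 from 87784556 to 87784820 (plus) and Snora73b on chromosome 4 from 132352322 to 132352526 (minus).

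Of 1558 snoRNA and scaRNA genes in the table, 170 had enough reads to be tested; 91 of these rose (53.5%, against 15.3% of all genes) and 1 fell, the predicted gene Gm24130. Their median change was 1.44, beside 1.17 in control cells over the same hours. These genes took 2.62% and 2.02% of gene reads in the 6 h cKO libraries, against 0.869% and 0.745% in the 3 h cKO libraries, so both 6 h libraries were above both 3 h libraries although they differed between themselves. Snora73b, an H/ACA snoRNA needed for processing of ribosomal RNA in other studies, made up 25.9% and 29.9% of the summed class level at 6 h, against 26.9% and 26.4% at 3 h. Without it the class summed to 19555 and 14352 CPM at 6 h, against 6258 and 5422 CPM at 3 h.

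Scarna6 had 346 and 336 CPM at 6 h, against 154 and 146 CPM at 3 h, a log2 fold change of 1.19 ± 0.067, adjusted p = 6.92e-17. Cells labelled cKO had 111 ± 9.58 CPM at 0 h and control cells averaged 74.3, 139 and 482 CPM at 0, 3 and 6 h, so its relative level was highest at the last time in both genotypes. Scarna9 had 55.04 and 49.3 CPM at 6 h, against 28.3 and 27.8 CPM at 3 h (0.88 ± 0.097, adjusted p = 3.03e-09). Snora73b had 6824 and 6125 CPM at 6 h, against 2306 and 1949 CPM at 3 h (1.61 ± 0.32, adjusted p = 0.00962). The 2 times did not overlap for any of these 3 genes; the same held for 66.5% of all genes. Snord118, the U8 snoRNA of ribosomal RNA processing, and Snora57 were picked after their values were seen. Snord118 had 716 and 459 CPM at 6 h, against 53.5 and 47.6 CPM at 3 h (3.53 ± 0.41, adjusted p = 0.000684). Snora57 had 759 and 484 CPM at 6 h, against 63.5 and 54.6 CPM at 3 h (3.39 ± 0.61, adjusted p = 0.0057). In cKO cells at 0 h Snord118 averaged 79.6 ± 18.1 CPM and Snora57 115 ± 21.01 CPM, between the 2 later times.

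The class was split by the letters of the transcripts, read on the transcript strand alone. TGATGA in the first 25 bases with CTGA in the last 15 was found in 41 of the 170, of which 27 rose and 0 fell, with a median of 1.68. ACA in the last 8 bases without either box letter was found in 87, of which 52 rose and 1 fell, with a median of 1.49. The other 42 held 12 that rose and 0 that fell, with a median of 0.71. Highest in this remainder was Snord118, at 3.53, so the windows miss known snoRNAs. Counts were low in many of the remainder: 20 of the 42 were below 1 CPM in all 4 libraries. This held for 8 of the 41 and 12 of the 87. In 58797 protein-coding transcripts, of other lengths, the same windows held both boxes in 0.0306% and the ACA letters alone in 10.9%. Both letter classes thus rose in more than the share of all genes. Reads of a retained host intron would also count towards an intronic gene.

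**Figure D1:**
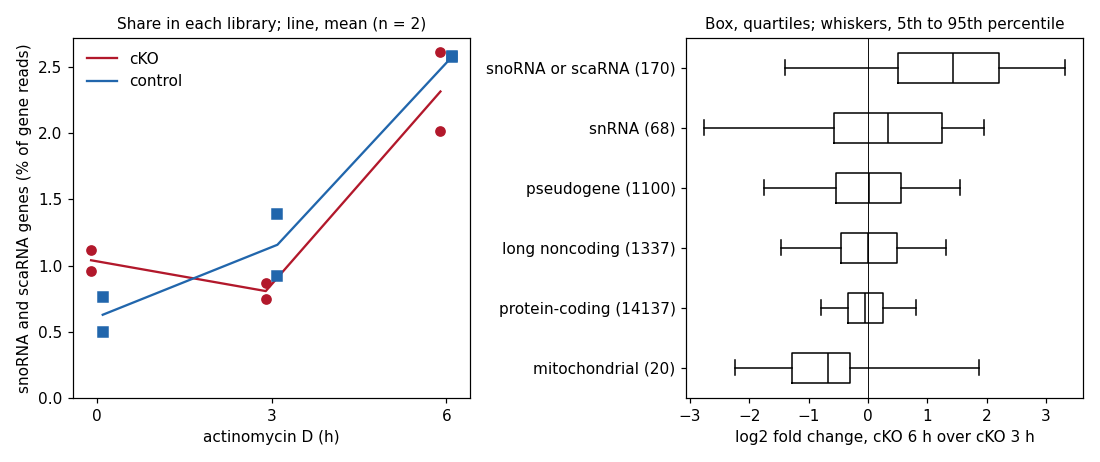
Left, share of gene reads taken by snoRNA and scaRNA genes (y axis, percent) after 0, 3 and 6 h of actinomycin D (x axis) in cKO (red circles) and control libraries (blue squares), 1 point a library, lines joining means. Right, log2 fold change of cKO 6 h over 3 h by annotation class, number of tested genes in brackets; the snoRNA and scaRNA box is centred at 1.44 while protein-coding genes are centred at -0.04.

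Host genes of snoRNAs carry snoRNAs in their introns and are themselves spliced, often noncoding, transcripts. Of 18 tested, 9 rose and 1 fell, with a median of 0.28, while 15.3% of all genes rose and 18.8% fell. Gas5, a noncoding host with many box C/D snoRNAs, had 102 and 94.0 CPM at 6 h, against 58.9 and 60.4 CPM at 3 h (0.71 ± 0.079, adjusted p = 1.06e-08). It was highest before the drug, with 354 ± 53.9 CPM in cKO cells at 0 h, and control cells averaged 365, 79.2 and 75.6 CPM at 0, 3 and 6 h. Snhg1 had 57.1 and 56.3 CPM at 6 h, against 31.9 and 34.1 CPM at 3 h (0.78 ± 0.092, adjusted p = 1.76e-08). Snhg8 had 21.6 and 17.9 CPM at 6 h, against 8.84 and 8.61 CPM at 3 h (1.14 ± 0.17, adjusted p = 2.06e-06). Dancr, another noncoding host, had 25.5 and 20.9 CPM at 6 h, against 12.9 and 13.1 CPM at 3 h (0.78 ± 0.14, adjusted p = 1.65e-05). The host that fell was Snhg14, the long transcript of the Snord115 and Snord116 clusters, with 25.7 and 21.8 CPM at 6 h, against 73.02 and 63.8 CPM at 3 h (-1.57 ± 0.33, adjusted p = 0.0111). With an offset for GC content, chosen after the data were seen, the change of Snhg14 was -0.43. All 5 of these host genes overlap another annotated gene, so part of their reads may belong to it.

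Structural noncoding RNAs were tested in 6 cases and 2 rose (33.3%, against 15.3%), with 0 falling. Rn7sk, the 7SK RNA that holds the elongation factor P-TEFb inactive, had 13889 and 14336 CPM at 6 h, against 9487 and 9245 CPM at 3 h (0.59 ± 0.033, adjusted p = 4.82e-17); its control level averaged 5242, 11661 and 9861 CPM at 0, 3 and 6 h. Terc, the RNA component of telomerase, had 77.05 and 86.2 CPM at 6 h, against 38.7 and 33.1 CPM at 3 h (1.21 ± 0.21, adjusted p = 0.00411). Among 26 nuclear long noncoding RNAs, 2 rose (7.69%, against 15.3%) and 9 fell (34.6%, against 18.8%), with a median of -0.20. Malat1, the abundant RNA of nuclear speckles, had 8515 and 8418 CPM at 6 h, against 11374 and 11266 CPM at 3 h (-0.42 ± 0.039, adjusted p = 8.38e-09). Kcnq1ot1, the noncoding RNA that silences genes of its imprinted domain in cis, had 219 and 216 CPM at 6 h, against 398 and 410.4 CPM at 3 h (-0.90 ± 0.053, adjusted p = 2.24e-16). Platr4, a stem cell long noncoding RNA, had 5.71 and 5.12 CPM at 6 h, against 11.4 and 10.8 CPM at 3 h (-1.07 ± 0.18, adjusted p = 1.34e-05). Tsix, the antisense partner of Xist, whose reads may be shared with it, went the other way, with 6.52 and 7.02 CPM at 6 h, against 2.99 and 3.82 CPM at 3 h (0.99 ± 0.20, adjusted p = 0.000129). Of the 1337 tested genes annotated as long noncoding, 82 rose (6.13%) and 95 fell (7.11%), with a median of -0.01. RNAs annotated as sense intronic, which lie within introns of other genes, were called lower for 28 of 156 members (17.9%, against 18.8%). They were called higher for 2 (1.28%, against 15.3%), with a median of -0.39. The share that fell was thus near that of all genes. Counts in this class are low: 82 of the 156 were below 1 CPM in all 4 libraries.

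The 10 protein-coding or long noncoding genes with the highest change included ribosomal protein genes. The named genes of both ends were chosen among genes whose libraries of the 2 times do not overlap. Rps29, a small-subunit protein (ENSMUSG00000034892.8, GRCm38 chromosome 12, 69157722 to 69159186, minus strand), had 408 and 409 CPM at 6 h, against 77.5 and 75.3 CPM at 3 h (2.42 ± 0.065, adjusted p = 2.57e-26). Its level in cKO cells at 0 h was 113 ± 9.45 CPM, and control cells averaged 107, 195 and 415 CPM at 0, 3 and 6 h. The 6 h cKO libraries were thus near the 6 h control level, and the 3 h cKO libraries lay below every other library. Rps28 had 229.9 and 267 CPM at 6 h, against 49.6 and 48.3 CPM at 3 h (2.35 ± 0.091, adjusted p = 5.01e-15). Rpl28 had 99.3 and 101 CPM at 6 h, against 22.3 and 22.1 CPM at 3 h (2.17 ± 0.088, adjusted p = 7.84e-21). Rpl29 had 76.03 and 73.3 CPM at 6 h, against 17.7 and 17.95 CPM at 3 h (2.06 ± 0.10, adjusted p = 1.23e-18). Rps28 and Rpl28 overlap a gene on the other strand.

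Others of the 10 encode proteins of different kinds. Ifitm3, an interferon-induced membrane protein that restricts virus entry, had 67.1 and 76.6 CPM at 6 h, against 13.6 and 15.8 CPM at 3 h (2.30 ± 0.11, adjusted p = 1.23e-18). Prdx6, a peroxiredoxin that reduces lipid peroxides, had 279 and 270.3 CPM at 6 h, against 73.5 and 66.7 CPM at 3 h (1.97 ± 0.067, adjusted p = 1.94e-23). Hspb1, a small heat shock protein, had 114 and 120.4 CPM at 6 h, against 30.6 and 30.6 CPM at 3 h (1.94 ± 0.081, adjusted p = 1.37e-20). Their 3 h cKO levels were the lowest of the 6 groups of the fit. Tcea3, an elongation factor of the TFIIS family, had 14.1 and 17.03 CPM at 6 h, against 3.83 and 4.28 CPM at 3 h (1.97 ± 0.17, adjusted p = 1.46e-11). Atp5e, the epsilon subunit of the mitochondrial ATP synthase, had 53.2 and 59.7 CPM at 6 h, against 15.7 and 15.8 CPM at 3 h (1.86 ± 0.11, adjusted p = 2.24e-16). For all 10 highest genes both 3 h cKO libraries were below all 10 other libraries of the fit. Choice by the largest rises from 3 h without overlap favours this, so the 6.11% of all genes is no yardstick for it.

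At the other end, Rbm17, a splicing factor that helps choose 3′ splice sites (ENSMUSG00000037197.11, GRCm38 chromosome 2, 11585437 to 11604153, minus strand), had 21.4 and 18.9 CPM at 6 h, against 68.1 and 67.1 CPM at 3 h (-1.78 ± 0.11, adjusted p = 1.47e-15). In cKO cells at 0 h it was at 34.98 ± 3.18 CPM and in control cells at 35.4, 21.4 and 19.8 CPM at 0, 3 and 6 h, so the 3 h cKO libraries were above every other library. Snw1, a spliceosome component also known as SKIP (ENSMUSG00000021039.9, GRCm38 chromosome 12, 87449075 to 87472274, minus strand), had 50.6 and 51.3 CPM at 6 h, against 155 and 158 CPM at 3 h (-1.62 ± 0.076, adjusted p = 4.39e-19), with 92.6 ± 4.195 CPM in cKO cells at 0 h. Arpp19, an inhibitor of the phosphatase PP2A in mitosis, had 21.4 and 19.04 CPM at 6 h, against 61.95 and 63.7 CPM at 3 h (-1.67 ± 0.10, adjusted p = 1.29e-15). Kif22, a chromosome-binding kinesin, had 41.8 and 44.01 CPM at 6 h, against 124 and 131 CPM at 3 h (-1.56 ± 0.080, adjusted p = 5.41e-18). For each of these 4 genes the 6 h cKO level was below and the 3 h cKO level above that of cKO cells at 0 h. Brix1, a factor of large ribosomal subunit assembly, had 18.1 and 14.7 CPM at 6 h, against 52.3 and 51.8 CPM at 3 h (-1.72 ± 0.11, adjusted p = 2.35e-15). Srfbp1, which binds serum response factor, had 4.89 and 5.41 CPM at 6 h, against 17.1 and 15.3 CPM at 3 h (-1.61 ± 0.18, adjusted p = 2.25e-09). Chml, a Rab escort protein, had 4.08 and 2.88 CPM at 6 h, against 9.54 and 12.1 CPM at 3 h (-1.78 ± 0.21, adjusted p = 1.47e-08). The last of the 10, beside Snhg14, were at low levels. Dtwd1, a tRNA-modifying enzyme, had 1.83 and 1.55 CPM at 6 h, against 4.59 and 5.62 CPM at 3 h (-1.65 ± 0.33, adjusted p = 0.000108). Slc24a1, a sodium and calcium exchanger, had 2.65 and 1.61 CPM at 6 h, against 5.71 and 5.93 CPM at 3 h (-1.61 ± 0.31, adjusted p = 5.93e-05). In 6 of the 10 lowest genes both 3 h cKO libraries were above all 10 others. Choice by the largest falls from 3 h without overlap favours this, so the 9.44% of all genes is no yardstick for it.

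**Figure D2:**
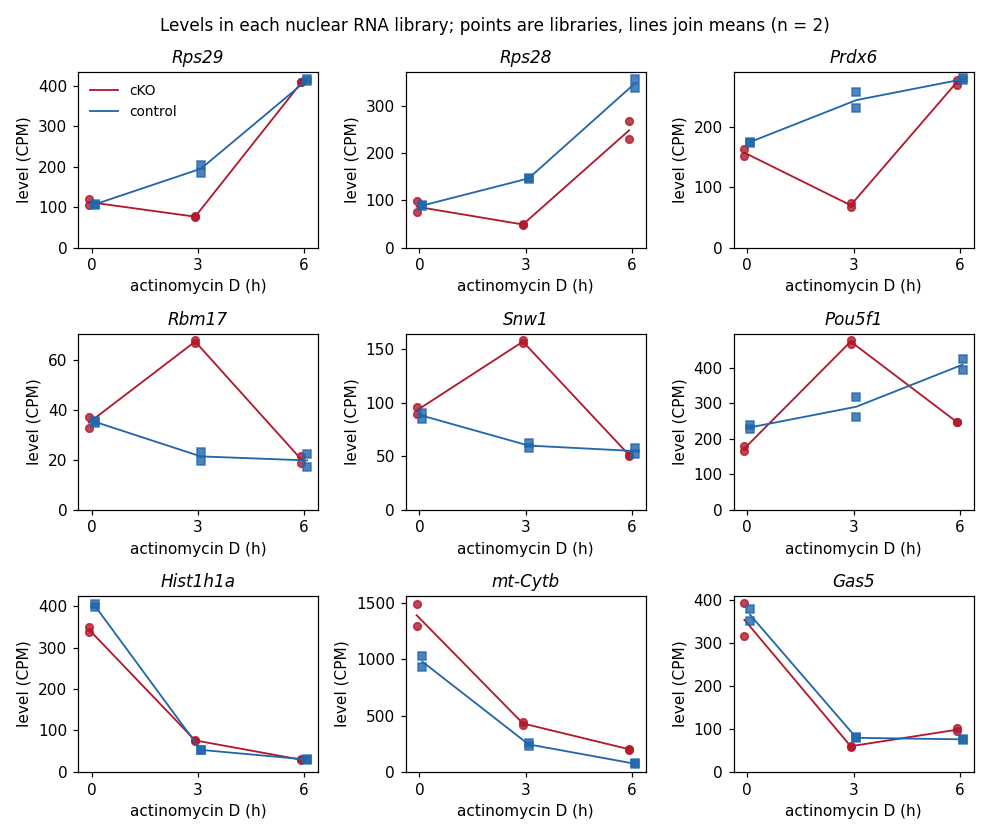
Level (y axis, CPM, from 0) of 9 named genes after 0, 3 and 6 h of actinomycin D (x axis) in cKO (red circles) and control (blue squares) libraries, 2 points a group, lines joining means. Rps29, Rps28 and Prdx6 dip in cKO cells at 3 h, Rbm17, Snw1 and Pou5f1 peak there, and Hist1h1a and mt-Cytb fall throughout in both genotypes.

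Cytosolic ribosomal protein genes moved both ways. Of 87 tested, 46 rose (52.9%, against 15.3% of all genes) and 18 fell (20.7%, against 18.8%). Their median was 0.33, with a range of -0.80 to 2.42. These genes were abundant, summing to 41013 and 41532 CPM at 6 h. In the highest of 5 level bins of protein-coding genes 30.9% rose and 34.8% fell. Small-subunit genes were called higher for 20 of 33 members and lower for 9, and large-subunit genes were called higher for 26 of 54 members and lower for 9. Rpl14 had 371 and 349.7 CPM at 6 h, against 129.7 and 136 CPM at 3 h (1.44 ± 0.061, adjusted p = 1.94e-20). At the other end Rpl17 had 314 and 347 CPM at 6 h, against 545 and 566 CPM at 3 h (-0.75 ± 0.058, adjusted p = 4.87e-13). Rpl23 had 598 and 598 CPM at 6 h, against 835 and 844 CPM at 3 h (-0.49 ± 0.049, adjusted p = 2.89e-10); these 2 were named after their values were seen. The 46 that rose had a median change of 0.50 in control cells and the 18 that fell a median of 0.05. Ribosomal protein genes have many processed copies in the genome, and how reads with several placements were counted is not given, so their levels are uncertain.

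Nuclear genes of the respiratory chain mostly rose. Of 81 tested, 52 rose (64.2%, against 15.3% of all genes) and 6 fell (7.41%, against 18.8%), with a median of 0.38. In the highest of 5 level bins of protein-coding genes 30.9% rose and 34.8% fell. Complex I subunits were called higher for 27 of 38 members and lower for 2, complex IV subunits were called higher for 10 of 12 members and lower for 1, and ATP synthase subunits were called higher for 10 of 17 members and lower for 3. Complex III subunits were called higher for 3 of 9 members, with a median of 0.05, and complex II subunits for 1 of 4 members, with a median of 0.07; 0 were lower in either. Atp5g1, which encodes the ring subunit c of the synthase, had 98.2 and 109 CPM at 6 h, against 34.7 and 29.4 CPM at 3 h (1.71 ± 0.085, adjusted p = 2.54e-18). Ndufa10 had 208 and 218 CPM at 6 h, against 82.1 and 84.6 CPM at 3 h (1.36 ± 0.065, adjusted p = 8.19e-19). Ndufb10 had 65.8 and 71.2 CPM at 6 h, against 22.9 and 24.5 CPM at 3 h (1.54 ± 0.087, adjusted p = 7.99e-17); both are accessory subunits of complex I. Atp5k, a small subunit of the synthase, was the lowest of the list, with 21.2 and 18.01 CPM at 6 h, against 32.5 and 32.4 CPM at 3 h (-0.77 ± 0.12, adjusted p = 5.2e-06). The respiratory genes made up a summed 14677 and 15009 CPM at 6 h, against 11943 and 11947 CPM at 3 h.

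Messenger RNAs of the mitochondrial genome, made by a separate polymerase, showed the opposite balance. Of 10 tested, 7 fell and 1 rose, with a median of -1.09, beside -1.41 in control cells. Of all genes, 18.8% fell and 15.3% rose. The median GC content of these transcripts was 37.4%. With the offset for GC content 5 were lower and 1 was higher, and the median was -0.57. The gene mt-Cytb, cytochrome b of complex III, had 207 and 194 CPM at 6 h, against 419 and 441 CPM at 3 h (-1.10 ± 0.067, adjusted p = 4.11e-12). Complex I genes mt-Nd1, with 307 and 304 CPM at 6 h, against 718 and 748 CPM at 3 h (-1.26 ± 0.18, adjusted p = 0.00207), and mt-Nd5, with 312 and 304 CPM at 6 h, against 642 and 661 CPM at 3 h (-1.08 ± 0.15, adjusted p = 0.00191), also fell. The exception was mt-Co1, the catalytic subunit of complex IV, with 7462 and 7529.7 CPM at 6 h, against 4764 and 4919 CPM at 3 h (0.63 ± 0.12, adjusted p = 0.00749); in control cells it averaged 4830.5, 4729.8 and 2106 CPM at 0, 3 and 6 h. Through its high count the summed level of the 10 genes was 8621 and 8652 CPM at 6 h, against 7072 and 7334 CPM at 3 h, although the median member fell. The 12S ribosomal RNA gene mt-Rnr1 had 6744 and 6477 CPM at 6 h, against 10282 and 9835 CPM at 3 h (-0.61 ± 0.13, adjusted p = 0.0117). The 16S gene mt-Rnr2 had 15866 and 14559 CPM at 6 h, against 17895 and 17591 CPM at 3 h and was not called (-0.22 ± 0.20, adjusted p = 0.472). The mt-Co2 value, 0.204 and 0.288 CPM at 6 h and 1.25 and 1.55 CPM at 3 h, rests on few reads.

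Genes of mitochondrial ribosomal proteins split evenly, with 17 of 77 higher (22.1%, against 15.3%) and 16 lower (20.8%, against 18.8%). Their median was 0.02. Mrpl4 had 49.1 and 42.8 CPM at 6 h, against 18.6 and 18.6 CPM at 3 h (1.28 ± 0.10, adjusted p = 1.73e-12). Mrps18b had 30.98 and 31.99 CPM at 6 h, against 12.3 and 15.6 CPM at 3 h (1.17 ± 0.13, adjusted p = 2.06e-09). Mrps31 had 26.5 and 25.2 CPM at 6 h, against 46.98 and 46.2 CPM at 3 h (-0.86 ± 0.098, adjusted p = 5.2e-09). Mrpl20 had 62.8 and 56.5 CPM at 6 h, against 95.99 and 99.4 CPM at 3 h (-0.73 ± 0.080, adjusted p = 2.62e-09). Large-subunit members were called higher for 8 of 48 members and lower for 12, and small-subunit members were called higher for 9 of 29 members and lower for 4.

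Glycolytic genes were called higher for 10 of 18 members (55.6%, against 15.3%) and lower for 2 (11.1%, against 18.8%), with a median of 0.23. Hk1 and Hk2 encode hexokinases, the first step of the pathway. Hk1 had 54.2 and 54.02 CPM at 6 h, against 22.6 and 22.95 CPM at 3 h (1.25 ± 0.090, adjusted p = 6.69e-14). Hk2 had 276 and 306 CPM at 6 h, against 172 and 176 CPM at 3 h (0.75 ± 0.058, adjusted p = 4.82e-13). Aldoa, an aldolase, had 1633 and 1765 CPM at 6 h, against 1164 and 1182 CPM at 3 h (0.54 ± 0.048, adjusted p = 5.59e-11). Pkm, pyruvate kinase, went against the list, with 1911 and 2044 CPM at 6 h, against 3567 and 3578 CPM at 3 h (-0.85 ± 0.049, adjusted p = 1.92e-13); its control level averaged 1196, 1922 and 3049.7 CPM at 0, 3 and 6 h.

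Chaperone genes were called higher for 11 of 26 members (42.3%, against 15.3%) and lower for 8 (30.8%, against 18.8%). They too were abundant, and in the highest level bin of protein-coding genes 30.9% rose and 34.8% fell. Hsp90ab1, the constitutive cytosolic HSP90 (ENSMUSG00000023944.14, GRCm38 chromosome 17, 45567775 to 45573271, minus strand), had 5151 and 5354 CPM at 6 h, against 2442 and 2494 CPM at 3 h (1.09 ± 0.034, adjusted p = 2.26e-24), and both 3 h libraries were far below both 6 h libraries. Cct8, a chaperonin subunit, had 538 and 523 CPM at 6 h, against 309.9 and 309 CPM at 3 h (0.78 ± 0.051, adjusted p = 5.46e-15). Pdia4, a disulfide isomerase of the endoplasmic reticulum, had 589.7 and 609 CPM at 6 h, against 366 and 396 CPM at 3 h (0.65 ± 0.051, adjusted p = 7.49e-13). Hspa9, the mitochondrial HSP70, had 581 and 552 CPM at 6 h, against 862 and 849.6 CPM at 3 h (-0.60 ± 0.051, adjusted p = 6.55e-12). Proteasome genes were called higher for 8 of 46 members (17.4%, against 15.3%) and lower for 13 (28.3%, against 18.8%). The 20S core, which holds the proteolytic sites, had 2 of 17 higher and 6 lower, and the 6 ATPases of the 19S cap had 2 higher and 2 lower. Psmd3, a subunit of the 19S lid, had 409 and 430.5 CPM at 6 h, against 266 and 265 CPM at 3 h (0.66 ± 0.054, adjusted p = 1.65e-12). Psmc6, a 19S ATPase, had 113 and 115 CPM at 6 h, against 201 and 202 CPM at 3 h (-0.82 ± 0.072, adjusted p = 1.57e-11). With the GC offset the change of Psmc6 was -0.22. The ATPase gene Psmc1 had 262 and 259 CPM at 6 h, against 162 and 162 CPM at 3 h (0.68 ± 0.059, adjusted p = 7.62e-12). Psmb2, a core subunit, had 105 and 117 CPM at 6 h, against 67.6 and 70.7 CPM at 3 h (0.69 ± 0.073, adjusted p = 1.17e-09).

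Translation factors were called higher for 12 of 35 members and lower for 12 (34.3% each, against 15.3% and 18.8%). They were abundant, summing to 24784 and 25609 CPM at 6 h. Both shares were near those of the highest level bin of protein-coding genes, where 30.9% rose and 34.8% fell. Eif3h, a subunit of initiation factor 3, had 112 and 117 CPM at 6 h, against 247 and 232 CPM at 3 h (-1.06 ± 0.066, adjusted p = 1.35e-15) and was the lowest of the 12 subunits of that factor, of which 6 rose and 1 fell. Eif5b, which joins the ribosomal subunits, had 78.3 and 79.8 CPM at 6 h, against 162 and 164 CPM at 3 h (-1.04 ± 0.073, adjusted p = 4.07e-14). Eif4b and Eif4h both stimulate the helicase eIF4A, and they differed in direction. Eif4b had 454 and 453 CPM at 6 h, against 718 and 739 CPM at 3 h (-0.68 ± 0.049, adjusted p = 5.25e-14). Eif4h had 319.8 and 332 CPM at 6 h, against 215 and 213 CPM at 3 h (0.61 ± 0.056, adjusted p = 4.8e-11). Eef1a1, the elongation factor that brings tRNA to the ribosome, had 5340.2 and 5691 CPM at 6 h, against 3708 and 3599 CPM at 3 h (0.59 ± 0.097, adjusted p = 0.00324). Rack1, a protein of the small ribosomal subunit, had 4273 and 4476 CPM at 6 h, against 4521 and 4508 CPM at 3 h and was not called (-0.05 ± 0.038, adjusted p = 0.386).

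**Figure D3:**
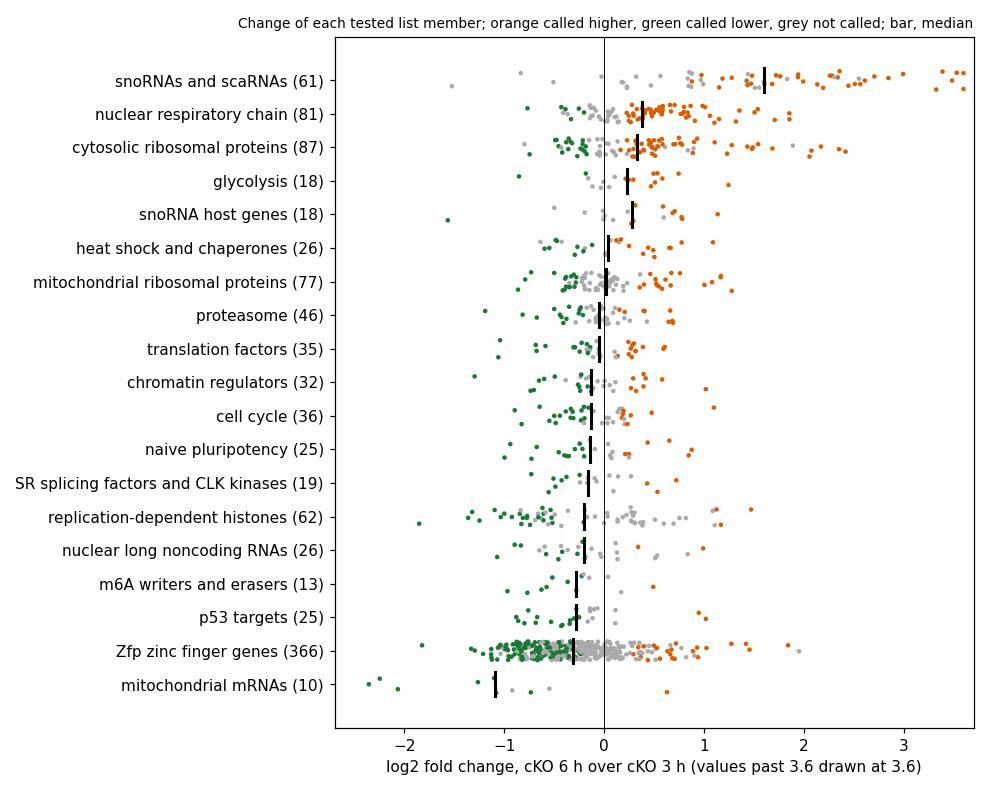
Log2 fold change of cKO 6 h over cKO 3 h (x axis) for every tested member of 19 gene lists (y axis, number tested in brackets), 1 point a gene; orange, called higher; green, called lower; grey, not called; black bar, list median. The snoRNA list is centred at 1.60 and mitochondrial mRNAs at -1.09, while ribosomal protein genes spread from -0.80 to 2.42.

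Replication-dependent histone genes make intronless mRNAs that end in a stem-loop instead of a poly(A) tail and are normally short-lived. The stem-loop letters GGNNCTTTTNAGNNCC were searched in the longest transcript of each histone gene on the transcript strand. They were found in 38 of 62 tested histone genes. Over 21901 protein-coding genes, histone genes included, 0.329% held them in at least 1 coding transcript of any length. The 2 searches thus differed in the transcripts used. Shown for 3 named genes, with the loop in capitals and from GENCODE M21 (GRCm38, all on chromosome 13, plus strand), the letters lie in Hist1h4h (23531050 to 23531519), Hist1h2bb (23746734 to 23747241) and Hist1h2bm (21722044 to 21722567):
Hist1h4h: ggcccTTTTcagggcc
Hist1h2bb: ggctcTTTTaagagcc
Hist1h2bm: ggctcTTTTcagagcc
Of the 62 genes, 22 fell (35.5%, against 18.8% of all genes) and 3 rose, with a median of -0.20, whereas the median in control cells over the same hours was -1.06. Their summed level was 414 and 401 CPM at 6 h, against 614 and 568 CPM at 3 h. Under the GC offset 24 were lower and 0 higher, with a median of -0.37. The control median above is without this offset. The 38 genes with the letters had a median of 0.09, with 13 lower and 2 higher, and the 24 without a median of -0.54, with 9 lower and 1 higher.

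All 5 linker histone H1 genes fell. Hist1h1a had 28.3 and 30.2 CPM at 6 h, against 77.4 and 74.6 CPM at 3 h (-1.36 ± 0.072, adjusted p = 1.42e-17), after 343 ± 7.12 CPM in cKO cells at 0 h. Of 12 H4 genes 7 fell, and of 18 H2B genes 6 fell. Of 11 H3 genes 1 fell and 1 rose, and their median was 0.39. Hist1h4h had 17.1 and 15.9 CPM at 6 h, against 36.1 and 33.7 CPM at 3 h (-1.10 ± 0.11, adjusted p = 7.82e-10). Among H2B genes, Hist1h2bb had 7.95 and 5.64 CPM at 6 h, against 17.2 and 14.2 CPM at 3 h (-1.32 ± 0.15, adjusted p = 3.42e-09). Hist2h2bb had 20.8 and 19.7 CPM at 6 h, against 40.7 and 35.6 CPM at 3 h (-0.92 ± 0.10, adjusted p = 2.59e-09). Hist1h2bm had 4.08 and 4.03 CPM at 6 h, against 3.41 and 3.301 CPM at 3 h and was not called (0.27 ± 0.21, adjusted p = 0.349), after 48.9 ± 1.46 CPM in cKO cells at 0 h. Of 16 H2A genes 3 fell and 2 rose. Histone genes are close copies of each other, so reads may be split or lost between them.

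Histone variants can replace the replication-dependent histones in chromatin. Of 11 tested, 5 were called higher (45.5%, against 15.3%) and 3 lower (27.3%, against 18.8%). H2afz, which encodes H2A.Z, had 236 and 225 CPM at 6 h, against 376 and 383 CPM at 3 h (-0.72 ± 0.058, adjusted p = 1.14e-12). H3f3a, a gene for H3.3, had 71.5 and 77.1 CPM at 6 h, against 103 and 93.3 CPM at 3 h (-0.39 ± 0.081, adjusted p = 0.000194). H2afy, the macroH2A gene, had 126 and 129 CPM at 6 h, against 90.2 and 89.9 CPM at 3 h (0.50 ± 0.068, adjusted p = 2.46e-07). H1fx, a linker variant, had 35.5 and 31.5 CPM at 6 h, against 18.2 and 16.1 CPM at 3 h (0.95 ± 0.13, adjusted p = 4.22e-07).

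Zfp genes, most of which encode DNA-binding zinc finger proteins, were called lower for 132 of 366 members (36.1%, against 18.8% of all genes) and higher for 23, with a median of -0.31 beside -0.47 in control cells. Zfp518a had 49.3 and 47.6 CPM at 6 h, against 95.2 and 94.97 CPM at 3 h (-0.98 ± 0.083, adjusted p = 7.29e-12). Zfp24 had 26.1 and 23.6 CPM at 6 h, against 47.1 and 50.1 CPM at 3 h (-0.99 ± 0.095, adjusted p = 1.15e-10). Zfp978 had 30.8 and 29.6 CPM at 6 h, against 56.1 and 52.4 CPM at 3 h (-0.85 ± 0.092, adjusted p = 1.52e-09). Zfp692 rose, with 64.0 and 77.7 CPM at 6 h, against 38.1 and 39.8 CPM at 3 h (0.89 ± 0.092, adjusted p = 6.51e-10). With an offset for GC content added, chosen after the data were seen, 56 members were lower and 26 higher and the median was -0.11; the median GC content of these transcripts was 44.1%.

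Naive pluripotency genes were called lower for 12 of 25 members (48.0%, against 18.8%) and higher for 6 (24.0%, against 15.3%). Pou5f1, which encodes OCT4 (ENSMUSG00000024406.16, GRCm38 chromosome 17, 35506018 to 35510772, plus strand), had 246 and 248 CPM at 6 h, against 468 and 479 CPM at 3 h (-0.94 ± 0.067, adjusted p = 1.21e-12). The 3 h cKO level was above the mean of each other group, with 172 ± 8.95 CPM in cKO cells at 0 h and control means of 232, 290.0 and 408 CPM at 0, 3 and 6 h. Nanog, a core pluripotency factor, had 403 and 421 CPM at 6 h, against 558 and 573 CPM at 3 h (-0.45 ± 0.048, adjusted p = 1.31e-09). Fgf4, the autocrine growth factor, had 83.2 and 91.5 CPM at 6 h, against 148 and 143 CPM at 3 h (-0.73 ± 0.069, adjusted p = 9.46e-11). Dppa5a rose, with 1031 and 963 CPM at 6 h, against 568 and 539.7 CPM at 3 h (0.85 ± 0.054, adjusted p = 5.65e-15). Of 25 p53 targets, 15 fell (60.0%, against 18.8%) and 2 rose (8.0%, against 15.3%). The 3 named first fell and the last rose. Ccng1, a cyclin G gene, had 575 and 552 CPM at 6 h, against 897 and 913 CPM at 3 h (-0.68 ± 0.055, adjusted p = 1.81e-12). Eda2r, a receptor of the TNF family, had 110.1 and 103 CPM at 6 h, against 177 and 182 CPM at 3 h (-0.76 ± 0.071, adjusted p = 5.99e-11). Plk2, a polo-like kinase, had 34.7 and 35.1 CPM at 6 h, against 57.2 and 64.1 CPM at 3 h (-0.80 ± 0.084, adjusted p = 8.98e-10). Sesn2, which is induced by p53 and by the integrated stress response, had 49.9 and 55.6 CPM at 6 h, against 27.7 and 27.7 CPM at 3 h (0.95 ± 0.093, adjusted p = 1.7e-10).

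The integrated stress response list had 5 of 22 higher (22.7%, against 15.3%) and 4 lower (18.2%, against 18.8%). Its transcription factor Atf4 had 50.8 and 56.8 CPM at 6 h, against 86.7 and 84.1 CPM at 3 h (-0.65 ± 0.076, adjusted p = 9.78e-09). Shmt2, a serine hydroxymethyltransferase, had 166 and 178 CPM at 6 h, against 73.1 and 76.3 CPM at 3 h (1.21 ± 0.072, adjusted p = 3.4e-16). Slc7a5, an amino acid transporter, had 229 and 252 CPM at 6 h, against 126 and 125 CPM at 3 h (0.95 ± 0.062, adjusted p = 5.11e-15). Of 28 immediate early genes, 4 rose and 7 fell, beside 15.3% and 18.8% of all genes. Ccn2, a matricellular growth factor, had 18.5 and 18.9 CPM at 6 h, against 36.8 and 39.1 CPM at 3 h (-1.01 ± 0.096, adjusted p = 7.91e-11). Btg2, an antiproliferative factor, had 28.1 and 35.04 CPM at 6 h, against 50.1 and 53.7 CPM at 3 h (-0.67 ± 0.097, adjusted p = 7.74e-07). Klf10, a zinc finger factor, had 25.7 and 26.2 CPM at 6 h, against 38.7 and 37.4 CPM at 3 h (-0.55 ± 0.094, adjusted p = 1.31e-05). Spry4, a feedback inhibitor of ERK signalling, rose, with 6.32 and 5.64 CPM at 6 h, against 1.95 and 2.48 CPM at 3 h (1.38 ± 0.25, adjusted p = 3.64e-05).

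Genes of the m6A pathway fell more than they rose among writers and erasers. Of 13 tested, 8 fell (61.5%, against 18.8%) and 1 rose (7.69%, against 15.3%), with a median of -0.28. Wtap, the adaptor of the writer complex, had 40.6 and 42.1 CPM at 6 h, against 69.7 and 71.7 CPM at 3 h (-0.77 ± 0.083, adjusted p = 1.7e-09). Zc3h13, its nuclear anchor, had 63.2 and 63.5 CPM at 6 h, against 94.2 and 94.6 CPM at 3 h (-0.58 ± 0.072, adjusted p = 3.47e-08). Rbm15b, which recruits the complex to RNA, had 43.01 and 43.3 CPM at 6 h, against 62.6 and 61.1 CPM at 3 h (-0.52 ± 0.085, adjusted p = 6.17e-06). Alkbh5, a demethylase, rose, with 95.8 and 102 CPM at 6 h, against 74.5 and 66.8 CPM at 3 h (0.49 ± 0.073, adjusted p = 1.15e-06). With the GC offset the median of this list was -0.03 and 6 members were lower. Of 12 readers, 5 rose and 5 fell (41.7% each, against 15.3% and 18.8%), with a median of -0.23. The GC offset gave 5 calls upward, 1 downward and a median of 0.13. Hnrnpa2b1 had 635 and 610.4 CPM at 6 h, against 295 and 296 CPM at 3 h (1.07 ± 0.072, adjusted p = 8.14e-10). The reader genes that were called split by direction. Hnrnpc had 427 and 403 CPM at 6 h, against 520.4 and 530.4 CPM at 3 h (-0.34 ± 0.057, adjusted p = 7.9e-06). Rbmx had 22.01 and 17.9 CPM at 6 h, against 10.4 and 11.1 CPM at 3 h (0.84 ± 0.14, adjusted p = 5.41e-06). Igf2bp2 had 48.3 and 42.2 CPM at 6 h, against 29.4 and 31.1 CPM at 3 h (0.55 ± 0.093, adjusted p = 9.47e-06).

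Genes of nuclear RNA decay and export come next. Exosome genes and adaptors were called higher for 3 of 21 members (14.3%, against 15.3%) and lower for 6 (28.6%, against 18.8%). Mtrex, the helicase that feeds RNA to the exosome, had 181 and 172 CPM at 6 h, against 284 and 282 CPM at 3 h (-0.69 ± 0.064, adjusted p = 4.85e-11). Rbm7, an adaptor of the NEXT complex, had 28.7 and 27.7 CPM at 6 h, against 50.7 and 52.9 CPM at 3 h (-0.89 ± 0.098, adjusted p = 3.07e-09). C1d, an exosome cofactor, had 43.2 and 42.9 CPM at 6 h, against 68.7 and 67.1 CPM at 3 h (-0.66 ± 0.094, adjusted p = 5.77e-07); with the GC offset its change was 0.017. Xrn2, the nuclear 5′ to 3′ exonuclease, had 144 and 149 CPM at 6 h, against 102 and 102 CPM at 3 h (0.53 ± 0.066, adjusted p = 3.56e-08). Xrn2 was thus higher and the 3 others lower at 6 h. Export genes were called higher for 5 of 21 members (23.8%, against 15.3%) and lower for 8 (38.1%, against 18.8%). With the GC offset 6 were called each way. Thoc2 of the THO complex had 142 and 149 CPM at 6 h, against 298 and 306 CPM at 3 h (-1.05 ± 0.070, adjusted p = 1.11e-14). Zc3h11a had 4.08 and 5.01 CPM at 6 h, against 13.8 and 13.1 CPM at 3 h (-1.49 ± 0.18, adjusted p = 2.82e-08). The helicase genes Ddx39, with 145 and 144 CPM at 6 h, against 92.8 and 94.5 CPM at 3 h (0.62 ± 0.067, adjusted p = 1.68e-09), and Ddx39b, with 313 and 348 CPM at 6 h, against 233 and 229 CPM at 3 h (0.52 ± 0.061, adjusted p = 1.11e-08), rose.

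SR splicing factor and CLK kinase genes were called lower for 7 of 19 members (36.8%, against 18.8%) and higher for 3 (15.8%, against 15.3%). Their median was -0.16. With the GC offset the balance turned, to 3 lower and 6 higher with a median of 0.04. Srsf5 had 222 and 217 CPM at 6 h, against 131 and 135 CPM at 3 h (0.72 ± 0.069, adjusted p = 2.69e-10). Srsf7 had 139.8 and 139 CPM at 6 h, against 209 and 201 CPM at 3 h (-0.56 ± 0.064, adjusted p = 8.05e-09). Srsf3 had 143 and 133 CPM at 6 h, against 193 and 197 CPM at 3 h (-0.51 ± 0.063, adjusted p = 3.47e-08). Clk1, a kinase of SR proteins, had 45.3 and 39.2 CPM at 6 h, against 70.7 and 66.7 CPM at 3 h (-0.73 ± 0.092, adjusted p = 1.71e-07). Paraspeckle protein genes were called higher for 4 of 12 members (33.3%, against 15.3%) and lower for 5 (41.7%, against 18.8%). Their median was -0.04. The highest level bin of protein-coding genes had 30.9% higher and 34.8% lower. With the GC offset this balance also turned, to 5 higher and 1 lower with a median of 0.08. Rbm14 had 135 and 154 CPM at 6 h, against 94.7 and 105 CPM at 3 h (0.54 ± 0.076, adjusted p = 4.9e-07). Hnrnpk had 683 and 688 CPM at 6 h, against 571 and 571 CPM at 3 h (0.26 ± 0.049, adjusted p = 4.01e-05). Pspc1 had 129 and 117 CPM at 6 h, against 152 and 155 CPM at 3 h (-0.33 ± 0.073, adjusted p = 0.000466).

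Chromatin regulators were called higher for 8 of 32 members and lower for 12, beside 15.3% higher and 18.8% lower of all genes. In the highest level bin of protein-coding genes, the closer comparison, 30.9% rose and 34.8% fell. Trim28, the corepressor that works with zinc finger proteins, had 1552 and 1705 CPM at 6 h, against 793 and 815 CPM at 3 h (1.02 ± 0.050, adjusted p = 3.4e-16). Chd4, the remodeler of the NuRD complex, had 1288 and 1334 CPM at 6 h, against 879 and 873 CPM at 3 h (0.58 ± 0.041, adjusted p = 4.58e-14). Trim28 and Chd4 were higher at 6 h, and the 2 named next were lower. Rnf2, the ubiquitin ligase of Polycomb complex 1, had 56.3 and 49.9 CPM at 6 h, against 132 and 125 CPM at 3 h (-1.30 ± 0.083, adjusted p = 2.72e-15). Cbx5, which encodes HP1 alpha, had 302 and 302 CPM at 6 h, against 468 and 482 CPM at 3 h (-0.65 ± 0.058, adjusted p = 1.69e-11). Cell cycle genes were called lower for 17 of 36 members (47.2%, against 18.8%) and higher for 7 (19.4%, against 15.3%). The replicative helicase genes Mcm2 to Mcm7 were called higher for 3 of 6 members and lower for 0. Of the other 30 members, 4 were higher and 17 lower. Mcm6 had 251 and 257 CPM at 6 h, against 123 and 115 CPM at 3 h (1.10 ± 0.059, adjusted p = 1.67e-17). Mcm4 had 381 and 393 CPM at 6 h, against 277 and 279 CPM at 3 h (0.48 ± 0.054, adjusted p = 4.31e-09). Cdk1 had 144 and 137 CPM at 6 h, against 220.2 and 219 CPM at 3 h (-0.65 ± 0.063, adjusted p = 1.42e-10). Bub1, a checkpoint kinase, had 161 and 161 CPM at 6 h, against 234 and 236 CPM at 3 h (-0.55 ± 0.061, adjusted p = 3.72e-09).

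Imprinted genes were called higher for 7 of 28 members and lower for 7, beside 15.3% higher and 18.8% lower of all genes. Gnas, which encodes the stimulatory G protein alpha subunit, had 68.9 and 79.7 CPM at 6 h, against 30.4 and 33.4 CPM at 3 h (1.24 ± 0.087, adjusted p = 3.44e-14). Phlda2 had 15.1 and 13.8 CPM at 6 h, against 6.13 and 4.95 CPM at 3 h (1.37 ± 0.17, adjusted p = 3.98e-08). Peg3 had 395 and 388 CPM at 6 h, against 306 and 315 CPM at 3 h (0.33 ± 0.052, adjusted p = 3.07e-06). Of 21 genes of the 2-cell-like list, 2 rose and 2 fell (9.52% each, against 15.3% and 18.8%). Zscan4f had 13.2 and 11.7 CPM at 6 h, against 17.1 and 16.4 CPM at 3 h (-0.45 ± 0.15, adjusted p = 0.0199). Duxf3 had 4.48 and 5.29 CPM at 6 h, against 2.37 and 3.301 CPM at 3 h (0.81 ± 0.28, adjusted p = 0.0226). The other called members were Zfp809, a retroviral repressor, at 0.50 ± 0.098, and Eif1a, a translation factor, at -1.06 ± 0.075.

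Markers of other lineages are read against the 34.1% of all genes that were called in either direction. Of 15 feeder markers tested, 4 rose and 1 fell; Vim had 89.3 and 91.5 CPM at 6 h, against 68.1 and 69.4 CPM at 3 h (0.40 ± 0.072, adjusted p = 2.95e-05). Pdgfrb had 10.2 and 12.5 CPM at 6 h, against 7.10 and 7.43 CPM at 3 h (0.69 ± 0.17, adjusted p = 0.00188). Col1a1 had 4.89 and 3.57 CPM at 6 h, against 1.95 and 2.11 CPM at 3 h (0.96 ± 0.30, adjusted p = 0.0103) and Col6a2 fell at 0.612 and 0.633 CPM at 6 h and 1.67 and 1.86 CPM at 3 h. Of 15 endoderm markers, 2 rose and 0 fell, namely Sparc, with 879.5 and 904 CPM at 6 h, against 582 and 600.4 CPM at 3 h (0.59 ± 0.050, adjusted p = 4.14e-12), and Lamb1, with 217 and 234 CPM at 6 h, against 203 and 203 CPM at 3 h (0.15 ± 0.060, adjusted p = 0.0426). Both encode matrix proteins. With the GC offset 1 endoderm marker was higher and 2 were lower. Trophoblast markers had 1 of 11 higher (Krt18, 0.61 ± 0.22) and 2 lower (Tfap2c, -1.17 ± 0.17; Eomes, -0.87 ± 0.22). Neuroectoderm markers had 2 of 7 higher (Olig2, 0.75 ± 0.19; Tubb3, 0.25 ± 0.096) and 2 lower (Map2, -0.83 ± 0.25; Nes, -0.47 ± 0.095), and mesoderm markers 0 of 7 higher and 1 lower, again Eomes. The trophoblast genes Tpbpa and Prl3d1 were at 0 in all 4 libraries.

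Change varied with the base composition of the transcript. Protein-coding genes were divided into 5 equal bins by GC content, and the median change, from the lowest bin to the highest, was -0.35, -0.13, -0.01, 0.11 and 0.20. In the lowest bin 107 of 2828 genes rose and 1354 fell. In the highest 824 of 2828 rose and 148 fell. In control cells the medians of the same bins were -0.46, -0.14, 0.06, 0.24 and 0.38. Across 14137 genes, which share libraries and depth, Spearman's rho of change with GC content was 0.43 in cKO cells and 0.57 in control cells, given as a description. Transcripts of genes called higher had a median GC content of 54.1% and a median gene span of 18411 bases, those called lower 45.3% and 31710 bases, and those not called 51.2% and 23476 bases. With the offset for GC content the count was 5489, of which 2652 were higher and 2837 lower.

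Other features moved less. Density of GGACT, the core m6A motif letters searched on the transcript strand of the spliced transcript, ran from a median of 0.305 per kb in the lowest of 5 bins to 2.09 in the highest, with median changes of -0.10 and 0.04; in control cells these were -0.09 and 0.14. By spliced length the bin of shortest transcripts had a median of 0.04 and that of longest -0.10. Genes with a single exon, 438 of those tested, had a median of 0.07, with 63 higher and 56 lower. Low-level genes were rarely called: in the lowest of 5 bins by mean CPM 91 rose and 84 fell, against 875 and 985 in the highest.

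**Figure D4:**
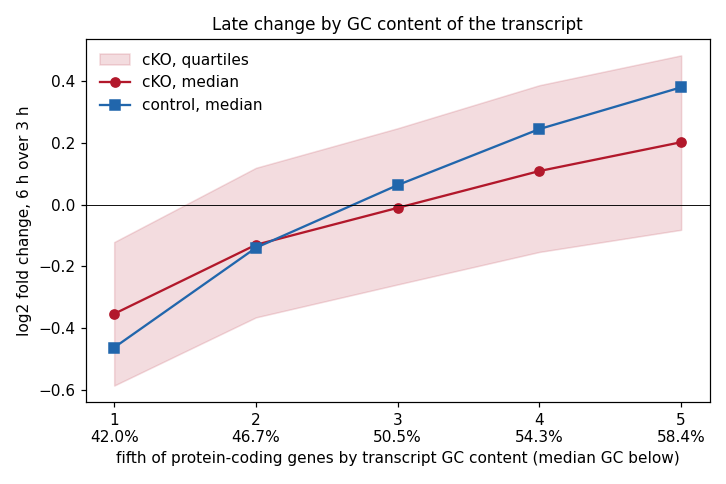
Median log2 fold change of 6 h over 3 h (y axis) in 5 equal bins of 14137 protein-coding genes by GC content of the spliced transcript (x axis, median GC below each), in cKO (red circles, with quartiles shaded) and control cells (blue squares). The cKO median goes up across the bins, reaching 0.20 in the bin with the highest GC content.

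Whether the late change differed between the genotypes was tested as the cKO change minus the control change, which share no library. Of 17900 genes, 3443 differed (19.2%), 1523 with a higher value in cKO (8.51%) and 1920 with a lower one (10.7%). Among histone genes the value was higher in cKO for 21 of 62 and lower for 1, with a median difference of 0.71. Ribosomal protein genes differed in both directions, 27 of 87 higher and 30 lower, as did respiratory chain genes, 25 of 81 higher and 21 lower. Zfp genes were higher in cKO in 51 of 366 cases and lower in 16. Over protein-coding genes the median difference was 0.12 in the lowest of 5 GC bins and -0.16 in the highest. Zfp transcripts had a median GC content of 44.1%, and the part of GC content in their difference was not tested. Only 8 of 170 snoRNA and scaRNA genes were higher and 7 lower, and Scarna6 was among the lower (-0.60 ± 0.093, adjusted p = 6.46e-06).

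Among single genes, Ifitm3 differed by 2.38 ± 0.16, adjusted p = 6.49e-14; its control level averaged 30.2 CPM at 6 h and 31.8 CPM at 3 h. Scaled to spike-in reads, the difference was -0.0398 for Ifitm3, so the sign turned. Prdx6 differed by 1.78 ± 0.091, adjusted p = 5.32e-17. Rbm17 differed by -1.65 ± 0.17, adjusted p = 1.62e-09, Kif22 by -1.64 ± 0.11, adjusted p = 1.05e-13, Snw1 by -1.49 ± 0.11, adjusted p = 5.9e-13 and Pou5f1 by -1.43 ± 0.094, adjusted p = 8.84e-13. Ccdc107 had 40.8 and 26.9 CPM at 6 h and 40.4 and 37.4 CPM at 3 h in cKO cells, with overlapping libraries, and averaged 69.8 CPM at 6 h and 10.8 CPM at 3 h in control cells, a difference of -2.97 ± 0.36, adjusted p = 0.000808. Chrm3, a muscarinic receptor gene, had 7.95 and 4.602 CPM at 6 h and 2.99 and 4.49 CPM at 3 h in cKO cells, against 0.948 CPM at 6 h and 2.26 CPM at 3 h in control cells (1.88 ± 0.51, adjusted p = 0.00678), and the difference was -0.53 when scaled to spike-in reads. Macrod2 fell in cKO cells, with 3.26 and 2.19 CPM at 6 h and 5.22 and 4.75 CPM at 3 h, while control cells averaged 4.26 CPM at 6 h and 2.35 CPM at 3 h (-1.87 ± 0.41, adjusted p = 0.000896). Brinp2 also fell, with 2.24 and 3.28 CPM at 6 h and 5.08 and 5.26 CPM at 3 h, while control cells averaged 3.99 CPM at 6 h and 1.99 CPM at 3 h (-1.79 ± 0.42, adjusted p = 0.00171). Adcy10, the soluble adenylyl cyclase gene, had 6.12 and 5.47 CPM at 6 h and 6.47 and 6.34 CPM at 3 h in cKO cells and was not called there; control cells averaged 0 CPM at 6 h and 0.589 CPM at 3 h. Because the 6 h control libraries held no read of it, its fitted difference depends on the model's prior count.

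**Figure D5:**
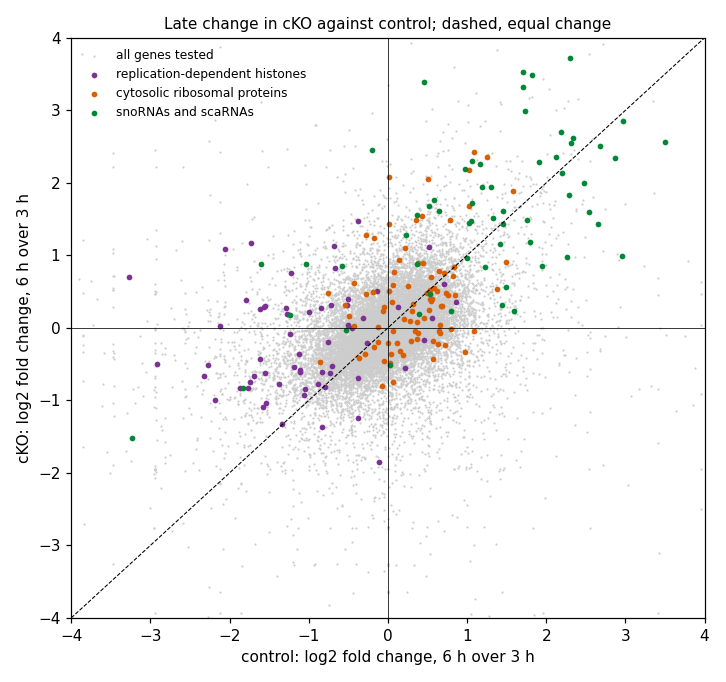
Log2 fold change of 6 h over 3 h in cKO cells (y axis) against the same in control cells (x axis), 1 point a gene, with replication-dependent histones (purple), cytosolic ribosomal protein genes (orange) and snoRNAs and scaRNAs (green) marked; dashed, equal change. Most histone genes lie above the dashed line, and their medians are -0.20 in cKO and -1.06 in control cells; values beyond 4 are outside the axes.

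Whether the late change of cKO cells differed from their early change was tested as the 3 to 6 h change minus the 0 to 3 h change. Both changes share the 3 h libraries, so a 3 h value that stands apart moves them in opposite directions. Of 17900 genes, 7661 differed (42.8%), 3373 higher for the late change (18.8%) and 4288 lower (24.0%). Histone genes were higher for the late change in 56 of 62 cases and lower in 0: their median was -0.20 from 3 to 6 h and -2.92 from 0 to 3 h. Immediate early genes were higher in 18 of 28 and lower in 0, with medians of 0.09 and -1.50. Proteasome genes were lower in 34 of 46 and higher in 3, with medians of -0.05 and 0.77, and ribosomal protein genes were lower in 50 of 87 and higher in 19, with medians of 0.33 and 0.90.

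Zfp296, a zinc finger gene of pluripotent cells, had 6.32 and 7.82 CPM at 6 h, against 2.51 and 1.702 CPM at 3 h, after 44.9 ± 4.88 CPM at 0 h, a difference between the changes of 6.29 ± 0.37, adjusted p = 2.13e-16. Spry4 was at 27.1 ± 1.48 CPM at 0 h and differed by 4.97 ± 0.42, adjusted p = 2.18e-12, and Hist1h2bm differed by 4.13 ± 0.32, adjusted p = 2.43e-13. Tsix, at 29.5 ± 2.75 CPM at 0 h, differed by 4.09 ± 0.32, adjusted p = 5.21e-13. Each of these 4 had its highest cKO level before the drug, which choice by the highest difference favours. At the other end, Eif3h was at 67.0 ± 0.347 CPM at 0 h and differed by -2.90 ± 0.11, adjusted p = 1.14e-21, and Atp5k, at 7.15 ± 0.322 CPM, differed by -2.95 ± 0.22, adjusted p = 1.25e-13. Slc24a1 (-3.01 ± 0.49), Tnfrsf13c, the receptor for the cytokine BAFF (-3.01 ± 0.62), and Prkar2b, a regulatory subunit of protein kinase A (-2.87 ± 0.52), were at low levels. Tnfrsf13c had 3.47 and 3.05 CPM at 6 h and 4.25 and 4.64 CPM at 3 h, after 0.768 ± 0.296 CPM at 0 h, and Prkar2b had 4.08 and 3.11 CPM at 6 h and 5.15 and 5.11 CPM at 3 h, after 1.04 ± 0.212 CPM. In these 5 genes the 3 h cKO level was the highest of the cKO times, which choice by the lowest difference favours.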

How the data were processed

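The authors deposited counts of reads per gene, whole numbers that are not normalized, for 54446 mouse genes and 92 spike-ins. Per the submitters' processing notes, CASAVA, Trimmomatic 0.38, HISAT2 2.1.0 and HTSeq were used with mm10; neither strand setting nor gene model release is given. Genes were annotated from GENCODE M21 (GRCm38), which matched 54409 identifiers without version. The 5 summary lines of the counter stayed out of library sizes and tests; the shares of unassigned and ambiguous reads are given above. From these counts, 12 libraries in 6 groups of 2 were fitted together in edgeR 4.0.16 (R 4.3.3) by the quasi-likelihood test with TMM factors, after a filter (minimum count 10, minimum total 15) that left 17900 genes, with Benjamini-Hochberg adjustment over all of them and a threshold of 0.05. The biological coefficient of variation was 6.52%. Between 2 libraries of a group, chi-square per degree of freedom was 3.94 at 6 h and 1.76 at 3 h in cKO cells, so they differed beyond sampling noise. The test was checked on simulated data. Alternatives used DESeq2 1.42.0 and an offset for GC content (added after the data were seen). Tables and figures used Python 3.11.15, pandas 2.3.3 and matplotlib 3.10.9.

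Named genes were Ythdc1 and Mettl3; the 10 highest and 10 lowest called changes of coding and long noncoding genes (mean count 50 or more, no Gm or Rik symbol, times not overlapping); the 5 highest and 5 lowest of each difference, without the overlap condition; in each list, the 4 called members of lowest p at most; and the 8 most abundant genes. A few genes that the rule names are not reported here. Members and lists were chosen with earlier results of these data known. Of 160 named genes, 54 overlap another annotated gene, 41 of them one on the other strand, and if strand was not used their reads cannot be told apart.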

Additional observations from a re-analysis of the deposited data

Results flagged for a closer look

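The late change differed between cKO and control cells for 3443 of 17900 genes by the test of the difference itself. By the rule for named genes these included, as cKO minus control on the log2 scale, Ifitm3 at 2.38 ± 0.16 and Chrm3 at 1.88 ± 0.51. Adcy10 had a fitted 5.69, which depends on the prior count because the 6 h control libraries were at 0. Lower in cKO were Ccdc107 at -2.97 ± 0.36, Slc24a1 at -2.11 ± 0.45, Macrod2 at -1.87 ± 0.41, Brinp2 at -1.79 ± 0.42 and Rbm17 at -1.65 ± 0.17.

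The late change of cKO cells differed from their early change for 7661 genes, with the 3 h libraries shared by both. Late minus early was 6.29 ± 0.37 for Zfp296, 4.97 ± 0.42 for Spry4, 4.13 ± 0.32 for Hist1h2bm and 4.09 ± 0.32 for Tsix. It was -3.01 ± 0.49 for Slc24a1, -3.01 ± 0.62 for Tnfrsf13c, -2.95 ± 0.22 for Atp5k, -2.90 ± 0.11 for Eif3h and -2.87 ± 0.52 for Prkar2b. The part of the 3 h cKO libraries, which stood apart on the spike-ins, was not tested.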

How the results depend on the processing

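The count of 6101 genes kept within 1.5 times under DESeq2 size factors (6064), library size alone (6248, of which 2454 higher), no filter (5576), at least 50 reads in 2 libraries (5896), the GC offset (5489), the compared libraries alone (6924, of which 3515 higher), the DESeq2 Wald test (4884) and thinning to 4950973 gene reads (4594). Of the difference from control, 3443 genes, library size alone gave 3543, of which 2386 were higher. Scaling to spike-in reads gave 17413 genes for the late change, 16097 for the difference from control and 16929 for the difference from the early change. A change of at least 2-fold was met by 934, 574 and 3947 genes, and a test against a fold change of 1.2 gave 3056 genes for the late change and 1481 for the difference from control. Leaving out 1 library at a time gave 3769 to 5344 genes for the late change, the lowest without the deeper 6 h cKO library (replicate 2), 2354 to 3087 for the difference from control and 5412 to 7374 for the difference from the early change. A lone library was then assumed to vary like the other groups.

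With the replicate number as a block the counts were 6229, 3724 and 7824. Libraries with the same number at 6 and 3 h in cKO cells had deviations that correlated at 0.079 over 9209 genes, so the numbers were not taken as pairs.

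Of 160 named genes, 79 were called higher and 78 of these lay below 0 when scaled to spike-in reads. Mettl3, Chrm3 and Hist1h2bm were not called, but they also turned below 0 with this scaling and are included in the values that follow. The late values were then Ythdc1 (-2.47), Mettl3 (-2.65), Rps29 (-0.38), Rps28 (-0.45), Ifitm3 (-0.51), Rpl28 (-0.63), Rpl29 (-0.74), Tcea3 (-0.84), Prdx6 (-0.83), Hspb1 (-0.86), Atp5e (-0.95), Chrm3 (-2.22), Zfp296 (-0.96), Spry4 (-1.42), Hist1h2bm (-2.54), Tsix (-1.81), H2afy (-2.30) and H1fx (-1.86). Further late values were Rpl14 (-1.37), Mrpl4 (-1.52), Mrps18b (-1.64), Ndufa10 (-1.45), Atp5g1 (-1.10), Ndufb10 (-1.27), Psmd3 (-2.14), Psmc1 (-2.12), Psmb2 (-2.12), Eif4h (-2.19), Hk1 (-1.56), Hk2 (-2.06), Aldoa (-2.27), Hsp90ab1 (-1.71), Cct8 (-2.02), Pdia4 (-2.15), Zfp692 (-1.92), Scarna6 (-1.62), Scarna9 (-1.92) and Snord43 (-1.52). Others were Rn7sk (-2.21), Terc (-1.60), Gas5 (-2.09), Snhg1 (-2.03), Snhg8 (-1.66), Dancr (-2.02), Dppa5a (-1.95), Sesn2 (-1.86), Shmt2 (-1.60), Slc7a5 (-1.85), Alkbh5 (-2.31), Hnrnpa2b1 (-1.73), Rbmx (-1.96), Igf2bp2 (-2.25), Xrn2 (-2.27), Ddx39 (-2.18), Ddx39b (-2.28), Srsf5 (-2.08) and Rbm14 (-2.26). Also below 0 were Hnrnpk (-2.54), Trim28 (-1.78), Chd4 (-2.22), Mcm6 (-1.70), Mcm4 (-2.32), Zfp809 (-2.31), Duxf3 (-1.999), Gnas (-1.57), Phlda2 (-1.43), Peg3 (-2.47), Vim (-2.41), Pdgfrb (-2.12), Col1a1 (-1.84), Sparc (-2.21), Lamb1 (-2.65), Krt18 (-2.20), Olig2 (-2.06), Tubb3 (-2.55), mt-Co1 (-2.17), Eef1a1 (-2.21) and Snora73b (-1.19). With spike-in scaling the difference from control was -0.0398 for Ifitm3 and -0.53 for Chrm3, and the difference from the early change was -0.50 for Hist1h2bm and -0.55 for Tsix. With the GC offset mt-Rnr1 was 0.072, C1d 0.017 and mt-Rnr2 0.49. Rack1 was 0.0065 with at least 50 reads in 2 libraries and 0.0023 with the compared libraries alone. Thinned, Adcy10 was 0.15, and Ccdc107 ranged from -0.5398 to 0.0497 with 1 library of the 2 times left out. The cause of these changes was not tested.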
